A study of Mus musculus with 6 samples.

Results

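The genes described here carry cells through mitosis and cytokinesis. They comprise the cyclins and kinases of mitotic entry, the spindle checkpoint and anaphase machinery, the kinetochore, the spindle, the chromosomal passenger complex, the cytokinesis machinery, and condensin with other chromosome proteins. The list was set by gene function and held 50 genes, of which 49 were measured by a probe set that names that gene alone. Ccnb1 was not analysed here. All 49 measured genes exceeded the signal filter, among 11260 genes tested. Each was read from its brightest probe set. A probe set is a group of short probes to one transcript, summarised as 1 signal per array.

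Expression was measured on 6 arrays of mouse megakaryocytes, 3 per group. The cells were differentiated from fetal liver with thrombopoietin, mature cells were separated by centrifugation in an albumin gradient, and all carried a mixed C57BL/6xSv129 background. The control group held 2 FOG1+/- arrays, replicates 1 and 2, and 1 FOG1+/+ array, replicate 3. The second group held 3 arrays labelled FOG1-/- ki/ki, called FOG1 ki/ki here, and the labels do not describe the change carried by the knocked-in allele. FOG1 is the product of Zfpm1 and acts as a partner of GATA transcription factors. The comparison asks how transcripts differ when FOG1 comes only from the knocked-in allele. The samples are called biological replicates, and the labels do not say whether cultures of the same number shared a litter or a day. The 2 probe sets of Zfpm1 read 429.7, 862 and 1137 in controls against 480.0, 868 and 1274, and 37.7, 36.0 and 44.5 in controls against 52.5, 37.9 and 37.0, so they did not separate the groups and do not check the knocked-in allele. The megakaryocyte genes that define the labelled cell type were present on every array, and the summed signal of 11 megakaryocyte genes was 23384 to 29933 in controls and 20662 to 26032 in FOG1 ki/ki.

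Megakaryocytes become polyploid by endomitosis, in which a cell replicates its DNA, enters mitosis and builds a spindle but does not complete division. The step that fails is cytokinesis: the cleavage furrow forms and then regresses, or later does not form. Activation of the small GTPase RhoA at the furrow depends on exchange factors, among them Ect2 and Arhgef2 (GEF-H1), and lower levels of both factors are known to accompany polyploidization. Most transcripts of the list are most abundant around the G2 and M phases, so they mark dividing and endomitotic cells alike.

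Many mitotic promoters carry a cell cycle homology region (CHR), here searched as TTTGAA, downstream of CCAAT boxes bound by NF-Y. Both motifs were searched on both strands of RefSeq promoter windows (GRCm38.p6, 250 bases before to 50 after each start). The RefSeq table held windows for 41 of the 49 genes, 47 windows in all. Aurkb, Ccna2, Cdc25c, Incenp, Kif20a, Smc4, Tpx2 and Zwilch had no entry. The CHR letters were in 32 of these windows (68.1%), against 17.9% of all 32851 windows. CCAAT was in 33 (70.2%, against 37.4%), and 29 windows held both (61.7%, against 6.95%). A match describes the letters and does not show that a factor binds there. The first listed windows of Arhgef2, Birc5, Cit, Mad2l1, Ncaph, Nuf2, Nusap1, Plk4 and Pttg1 held neither. By first listed window, genes with the CHR letters had a median log2 difference between FOG1 ki/ki and control of 0.32 (29 genes), and genes without them one of 0.33 (12 genes), so the medians were close. The 250 bases before the start are printed for Ect2, the furrow exchange factor (chr3:27153879-27154128, minus strand), and Mki67, the proliferation marker (chr7:135716380-135716629, minus strand). Among Aurkb, Ect2, Arhgef2, Kif23, Mki67 and Cit, only Ect2 and Mki67 were found to hold both motifs within those bases. Other genes of the list that hold both are not printed. Capitals mark TTTGAA and CCAAT, or ATTGG where CCAAT lies on the other strand.
Ect2: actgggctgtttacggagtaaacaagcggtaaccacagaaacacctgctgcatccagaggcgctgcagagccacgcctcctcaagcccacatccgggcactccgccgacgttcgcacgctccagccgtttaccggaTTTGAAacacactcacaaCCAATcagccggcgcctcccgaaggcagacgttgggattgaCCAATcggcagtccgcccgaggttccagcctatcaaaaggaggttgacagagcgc
Mki67: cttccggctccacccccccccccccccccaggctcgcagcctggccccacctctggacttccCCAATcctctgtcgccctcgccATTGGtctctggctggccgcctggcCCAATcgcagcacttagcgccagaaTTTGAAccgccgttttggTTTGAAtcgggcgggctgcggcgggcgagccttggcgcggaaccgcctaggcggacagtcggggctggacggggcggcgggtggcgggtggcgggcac
The CHR letters of Ect2 began 114 bases before the start, with 2 CCAAT boxes after them, and Mki67 held 2 CHR matches after its 3 CCAAT boxes.

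Mitosis and cytokinesis transcripts lay slightly higher in FOG1 ki/ki than in controls, by an amount that no single gene's test separated from the spread between arrays. Of the 49 genes, 47 had a mean above control, against 55.1% of all genes tested, and only Aurka and Pttg1 lay below. The median log2 difference, taken on log2(signal + 16) and always as FOG1 ki/ki minus control, was 0.33, where all genes tested had 0.033. With limma, 0 of the 49 passed an adjusted p of 0.05, where 0.0977% of all genes passed as higher and 0.0533% as lower. The lowest adjusted p was 0.511, for Mki67. At an unadjusted p under 0.05, 1 gene was higher and 0 lower (background 338 higher and 415 lower of 11260 genes, 6.69% in either direction). With the replicate number as a block, 0 passed again (background 0.417% higher and 0.417% lower, lowest adjusted p = 0.137). At an unadjusted p under 0.05, 16 were then higher and 0 lower (background 900 higher and 1176 lower of 11260 genes, 18.4% in either direction). In 6 genes every FOG1 ki/ki array read above every control array (background 6.32%), namely Ccnb2, Plk4, Cdc20, Kif4, Smc4 and Mki67. In RNA pooled from many gradient-separated cells, more cells in mitosis and more of these transcripts per cell cannot be told apart.

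Within equal replicate numbers, 34 of the 49 genes were higher in FOG1 ki/ki in all 3 pairs, against 24.8% of all genes tested, and 1, Aurka, was lower in all 3. The count higher was 38 in pair 1, 43 in pair 2 and 47 in pair 3. The median pair differences were 0.13, 0.27 and 0.57, where all genes tested had -4.35e-05, 0.041 and 0.047. Most of these genes had the same direction in each pair, and the widest gap was in pair 3. Kif11, Kif2c and Cit show it most plainly, with pair 3 differences of 1.47, 1.30 and 1.23. Mki67, Cenpf and Ncapg had their widest gap in pair 1, at 1.25, 0.85 and 0.52.

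**Figure D1:**
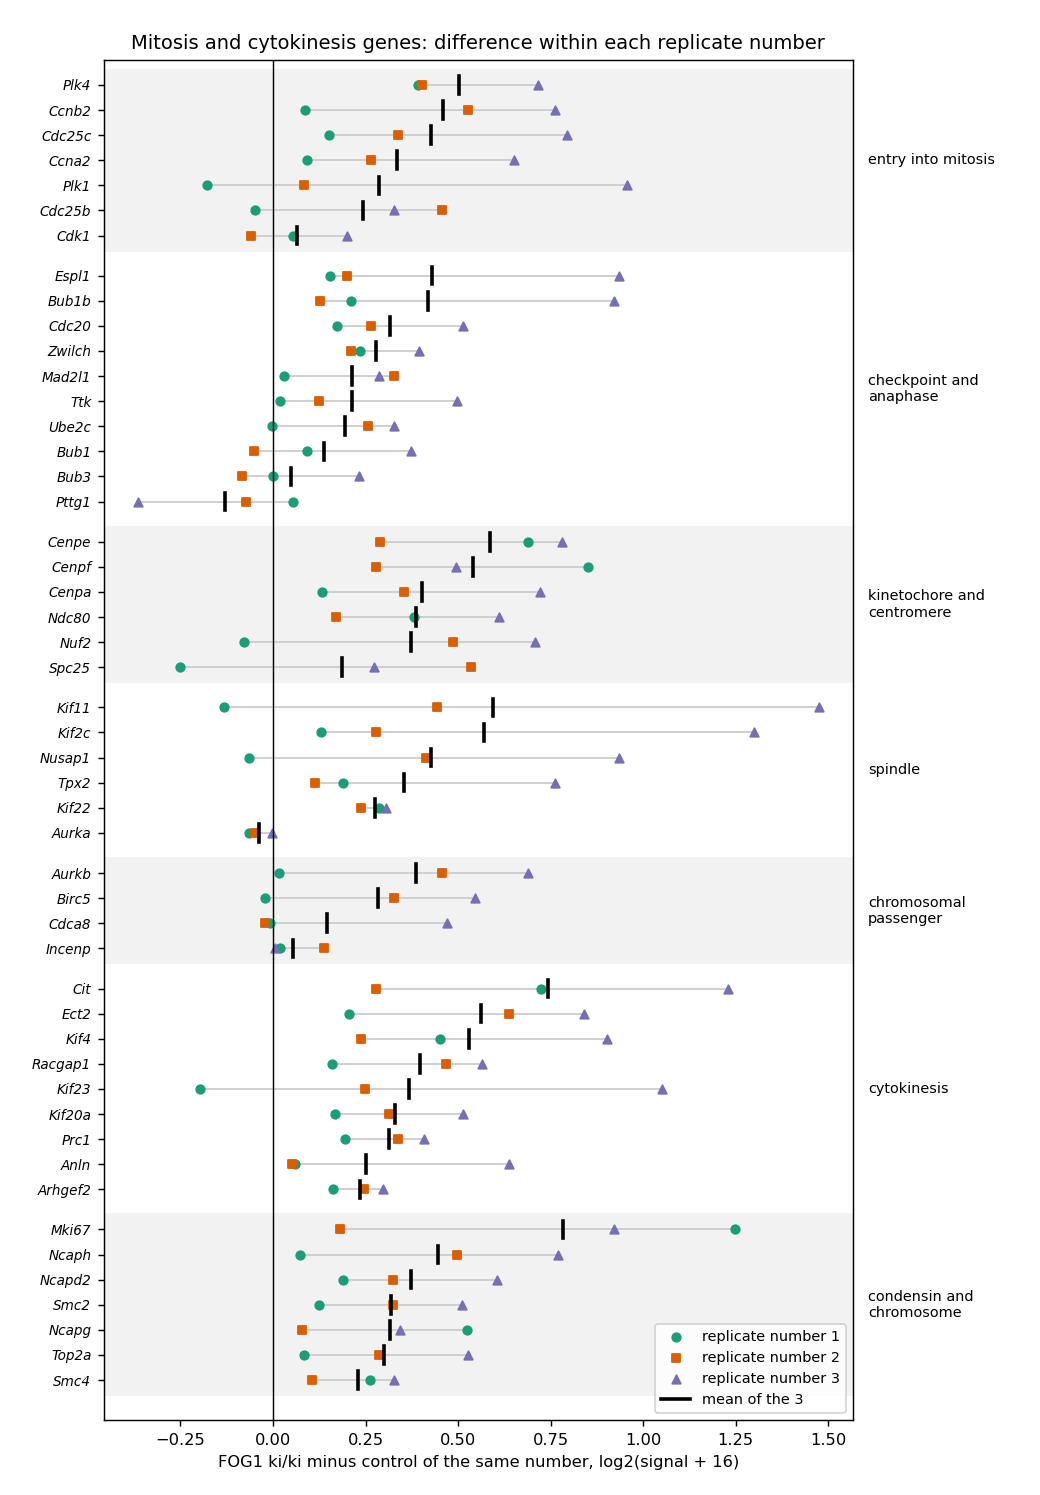
Difference in log2(signal + 16) between FOG1 ki/ki and the control of the same replicate number for the 49 genes, grouped by role, with 1 symbol per replicate number and a bar at the mean. Most symbols lie to the right of 0, pair 3 reaches 1.47 for Kif11, and the bars of Aurka and Pttg1 lie to the left.

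The FOG1+/+ array was the one that most set the size of this difference. Control replicate 3 gave the lowest of the 6 signals for 41 of the 49 genes, against 26.7% of all genes tested, and the highest for 0. Its signals lay below those of both FOG1+/- arrays for 42 genes, against 41.8% of all genes tested. The median log2 difference of that array from the mean of those 2 was -0.76, where all genes tested had -0.043. FOG1 ki/ki replicate 3 was likewise the lowest array of its group for 36 genes, against 38.4% of all. Without control replicate 3, 29 of 49 genes lay above control and the median was 0.072 (all genes 0.029). Without that array the medians of the 7 roles lay between -0.040 and 0.13, and those of checkpoint, kinetochore and cytokinesis genes were below 0. Without both arrays numbered 3, 43 lay above and the median was 0.20. The medians of the 7 roles then lay between 0.12 and 0.27. The median was 0.50 without control replicate 1. Control replicate 3 is the only FOG1+/+ array, so genotype among the controls and replicate number cannot be told apart. The ratio of 3' to 5' signal for Gapdh, a measure of RNA integrity, was 1.86 and 2.38 on the control and FOG1 ki/ki arrays numbered 3, 1.74 and 1.63 on those numbered 2, and 1.24 and 1.20 on those numbered 1. For actin the ratios were, in the same order, 1.93 and 2.76, 2.11 and 2.06, and 1.44 and 1.36. By actin the highest control was replicate 2. The summed mast cell marker signal was also lowest on control replicate 3, at 763 against 4315 and 4343 on the other controls. The part of either in the result was not tested.

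**Figure D2:**
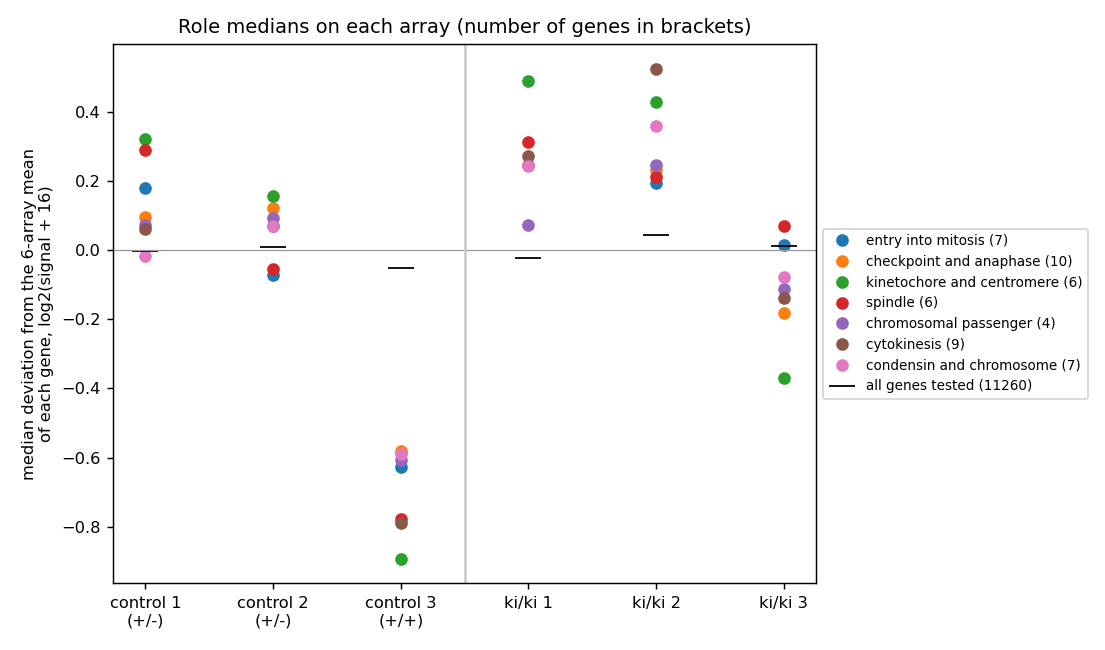
Median deviation of each role's genes from their own 6-array mean, in log2(signal + 16), on each array, with all genes tested as a dash. Every role's lowest point is on control replicate 3, between -0.89 and -0.58, where all genes tested are at -0.053.

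Among genes of entry into mitosis, 7 of 7 lay above control, with a median of 0.34 and pair medians of 0.086, 0.34 and 0.72. Plk4, the kinase that starts centriole duplication, read 424, 418 and 257 on control arrays 1 to 3 and 561, 557 and 433 on FOG1 ki/ki arrays 1 to 3. The groups did not overlap, although the lowest FOG1 ki/ki array was only just above the highest control (difference 0.50 on the log2 scale, SE 0.25, adjusted p = 0.858 by limma). Cyclin B2, Ccnb2, an activator of Cdk1, read 799.8, 664 and 476 in controls and 850.1, 964 and 818 in FOG1 ki/ki, again without overlap (difference 0.46 on the log2 scale, SE 0.22, adjusted p = 0.818 by limma). Its partner kinase Cdk1 read 1410.5, 1452 and 878 and 1466, 1391 and 1012, with pair differences of 0.055, -0.061 and 0.20. Both replicate 3 arrays were low for Cdk1, and the groups overlapped (difference 0.065 on the log2 scale, SE 0.24, adjusted p = 0.999 by limma). Cyclin A2 (Ccna2, 0.34), the phosphatase Cdc25c that activates Cdk1 (0.43), the mitotic kinase Plk1 (0.29) and the phosphatase Cdc25b (0.24) had log2 differences between those of Cdk1 and Ccnb2. The entry median was 0.54 with control replicate 1 left out and 0.13 with control replicate 3 left out.

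Checkpoint and anaphase genes had the smallest median of the 7 roles, 0.21, with 9 of 10 above control. Cdc20, which activates the anaphase-promoting complex, read 763, 753 and 631 in controls and 862, 908 and 907 in FOG1 ki/ki. All 3 FOG1 ki/ki arrays were above all controls, by a small margin (difference 0.32 on the log2 scale, SE 0.16, adjusted p = 0.841 by limma). Separase, Espl1, which cleaves cohesin, read 113, 139.8 and 76.8 against 127, 163 and 161 (difference 0.43 on the log2 scale, SE 0.29, adjusted p = 0.945 by limma). Only its control replicate 3 stood clearly apart. Securin, Pttg1, the inhibitor of separase, ran the other way, with 934, 1625 and 1295 in controls and 970.2, 1543 and 1002 in FOG1 ki/ki (difference -0.13 on the log2 scale, SE 0.26, adjusted p = 0.999 by limma). The groups overlapped, and its dimmer probe sets differed by -0.0082 and 0.058. The checkpoint kinases Bub1b (0.42), Bub1 (0.14) and Ttk (0.21) and the checkpoint proteins Mad2l1 (0.21), Bub3 (0.050) and Zwilch (0.28) had differences from near 0 to the level of Espl1. The ubiquitin-conjugating enzyme Ube2c, a partner of the anaphase-promoting complex, had 0.19. The checkpoint and anaphase median was 0.40 with control replicate 1 left out, -0.022 with control replicate 3 left out, 0.11 with FOG1 ki/ki replicate 1 left out and 0.36 with FOG1 ki/ki replicate 3 left out. It was 0.15 with both arrays numbered 3 left out.

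Kinetochore and centromere genes all lay above control, 6 of 6, with a median of 0.40. The kinetochore motor Cenpe read 106, 251 and 164 in controls and 179.9, 309.9 and 293 in FOG1 ki/ki (difference 0.59 on the log2 scale, SE 0.36, adjusted p = 0.935 by limma), and the large kinetochore protein Cenpf read 73.8, 199 and 123 against 146, 244 and 179 (difference 0.54 on the log2 scale, SE 0.38, adjusted p = 0.949 by limma). On these probe sets control replicate 1 was the lowest array, unlike most of the list, each pair was higher in FOG1 ki/ki, and the groups overlapped through control replicate 2. A dimmer Cenpe probe set read 47.3, 81.1 and 56.6 against 96.4, 59.5 and 38.9, lower in pairs 2 and 3 and 0.021 apart on the log2 scale. Spc25, a subunit of the microtubule-binding NDC80 complex, read 454, 209 and 149.6 against 379, 310.0 and 184 and was lower in pair 1 only (difference 0.19 on the log2 scale, SE 0.44, adjusted p = 0.999 by limma). Overlap of the groups also held for its partners Ndc80 (0.39) and Nuf2 (0.37) and for the centromeric histone Cenpa (0.40). The kinetochore median was 0.63 with control replicate 1 left out, -0.040 with control replicate 3 left out, 0.22 with FOG1 ki/ki replicate 1 left out and 0.61 with FOG1 ki/ki replicate 3 left out. It was 0.26 with both arrays numbered 3 left out.

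Spindle genes ranged most widely. Kif11, the motor that separates spindle poles, read 499, 327 and 197 in controls and 454, 451 and 575 in FOG1 ki/ki (difference 0.60 on the log2 scale, SE 0.33, adjusted p = 0.909 by limma). FOG1 ki/ki replicate 3 was its highest array and control replicate 3 its lowest, while pair 1 was lower in FOG1 ki/ki. Nusap1, a microtubule-bundling protein, read 637, 518 and 308 against 608, 695 and 604 (difference 0.43 on the log2 scale, SE 0.27, adjusted p = 0.939 by limma), also with overlap. Aurora A, Aurka, the spindle pole kinase, was level within every pair, with 400.1, 301 and 197 in controls and 382, 291 and 197 in FOG1 ki/ki and pair differences of -0.066, -0.048 and -0.0015 (difference -0.039 on the log2 scale, SE 0.34, adjusted p = 0.999 by limma). Its activator Tpx2 had a log2 difference of 0.35, the microtubule depolymerase Kif2c 0.57 and the chromosome-arm motor Kif22 0.28. The role had 5 of 6 genes above control and a median of 0.39. The spindle median was 0.60 with control replicate 1 left out and 0.099 with control replicate 3 left out.

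Of the chromosomal passenger complex, which corrects chromosome attachment and then moves to the midzone, 4 of 4 lay above control with a median of 0.22. Aurora B, Aurkb, its kinase, read 477, 218 and 169 in controls and 483, 306 and 282 in FOG1 ki/ki. Both replicate 1 arrays were high and level with each other, and the gap came from pairs 2 and 3 (difference 0.39 on the log2 scale, SE 0.40, adjusted p = 0.998 by limma). Survivin, Birc5, read 2042, 1726 and 1069.8 against 2012, 2171 and 1569 (difference 0.28 on the log2 scale, SE 0.25, adjusted p = 0.982 by limma), with the lowest value on control replicate 3. The scaffold Incenp read 1576, 2493 and 1161 against 1598, 2746 and 1167 (difference 0.055 on the log2 scale, SE 0.36, adjusted p = 0.999 by limma). Its arrays differed by replicate number far more than by group. Borealin, Cdca8, had a log2 difference of 0.15. The passenger median was 0.056 with control replicate 3 left out and 0.38 with FOG1 ki/ki replicate 3 left out.

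All 9 cytokinesis genes lay above control, with a median of 0.37 and pair medians of 0.17, 0.28 and 0.64. Ect2 read 93.5, 121 and 6.08 on the controls and 110.2, 197 and 23.6 on FOG1 ki/ki, a log2 difference of 0.56 with an SE of 0.83 (limma adjusted p = 0.999). It was higher in each pair, but the spread between replicate numbers exceeded the gap between groups, and both replicate 3 arrays were near background. With the replicate number as a block, the SE for Ect2 was 0.22 and the limma adjusted p was 0.249. Without control replicate 3 alone the Ect2 difference turned to -0.26, with the low FOG1 ki/ki replicate 3 array still in. The Ect2 differences within pairs 1, 2 and 3 were 0.20, 0.64 and 0.84. Arhgef2 was brighter and steadier, with 770.5, 642 and 819 in controls and 864, 764 and 1010.4 in FOG1 ki/ki (difference 0.23 on the log2 scale, SE 0.18, adjusted p = 0.968 by limma). It was the one cytokinesis gene whose lowest array was not control replicate 3. Its pair differences of 0.16, 0.25 and 0.30 were close to each other.

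Citron kinase, Cit, which acts at the midbody, had the largest log2 difference of its role. It read 48.9, 120.0 and 47.1 in controls and 91.1, 149 and 132 in FOG1 ki/ki (difference 0.74 on the log2 scale, SE 0.38, adjusted p = 0.865 by limma), and only control replicate 2 overlapped the other group. Kif4, the motor that with Prc1 organizes the midzone, read 114, 138 and 75.4 against 161, 166 and 155 without overlap (difference 0.53 on the log2 scale, SE 0.29, adjusted p = 0.890 by limma). Kif23, which with Racgap1 forms the centralspindlin complex that recruits Ect2, read 125, 213 and 47.2 against 107, 256 and 115 (difference 0.37 on the log2 scale, SE 0.53, adjusted p = 0.999 by limma). It was lower in pair 1 and overlapped, and a second, dimmer probe set differed by -0.11. Racgap1 (0.40), the midzone motor Kif20a (0.33), the microtubule crosslinker Prc1 (0.31) and the ring scaffold anillin, Anln (0.25), were each higher in all 3 pairs. The cytokinesis median was 0.55 with control replicate 2 left out, -0.0037 with control replicate 3 left out, 0.23 with FOG1 ki/ki replicate 2 left out and 0.55 with FOG1 ki/ki replicate 3 left out. It was 0.27 with both arrays numbered 3 left out.

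**Figure D3:**
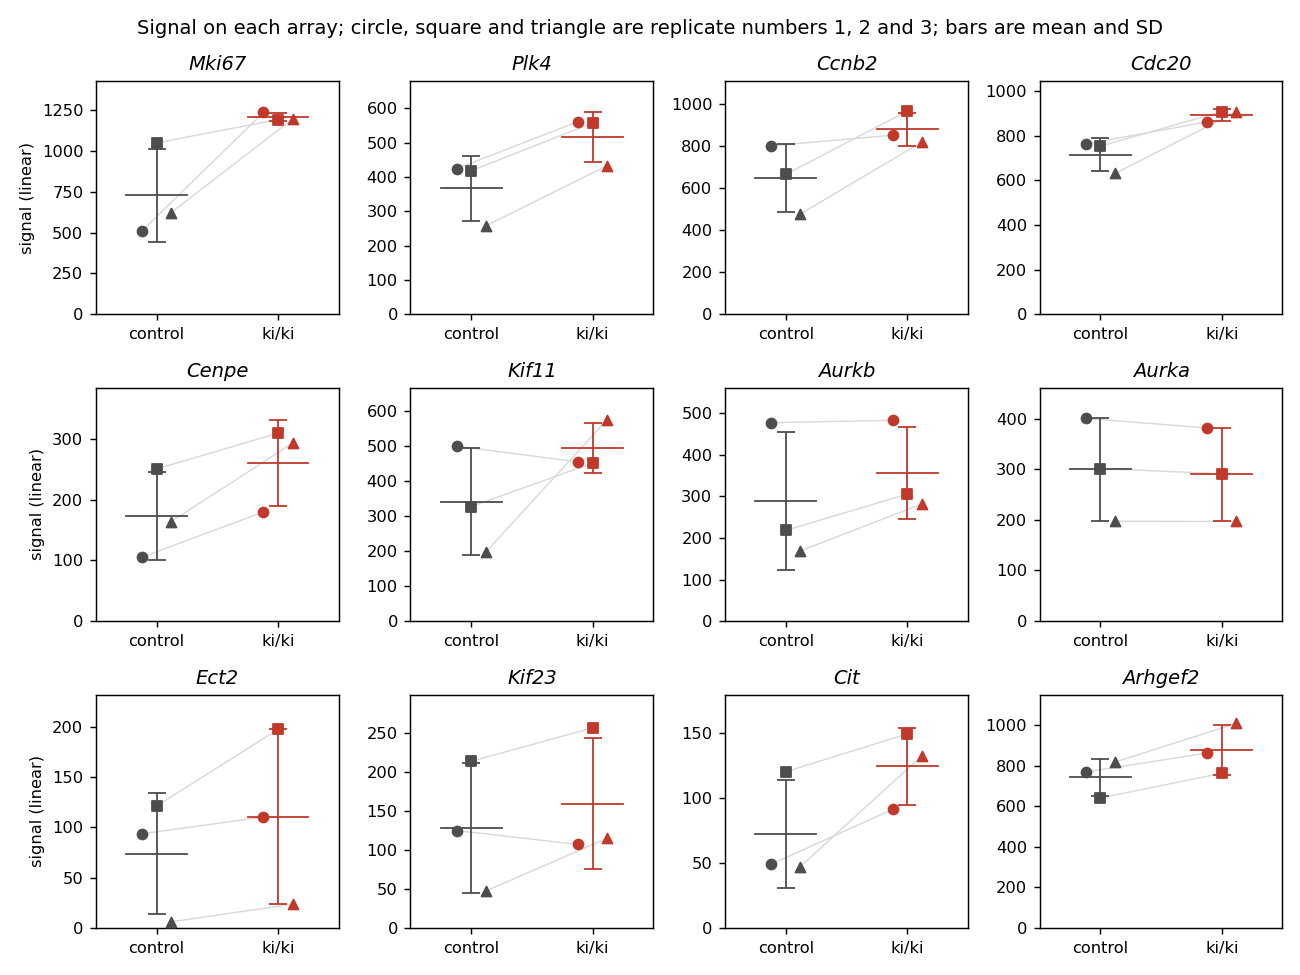
Signal of 12 genes on each array on a linear axis from 0, with circles, squares and triangles for replicate numbers 1, 2 and 3, grey lines joining equal numbers, and bars for the mean and SD of 3 arrays. Mki67 and Cdc20 separate the groups, Aurka is level, and Ect2 is low on both arrays numbered 3, at 6.08 and 23.6.

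Condensin and chromosome genes had one direction in every pair, with 7 of 7 higher in all 3 and pair medians of 0.19, 0.29 and 0.53. Mki67, which coats mitotic chromosomes and marks proliferating cells, had the largest log2 difference of the list. It read 510.2, 1048 and 622 on control arrays and 1234, 1191 and 1194 on FOG1 ki/ki arrays (difference 0.78 on the log2 scale, SE 0.26, adjusted p = 0.511 by limma). The FOG1 ki/ki arrays were nearly equal, and the controls were spread, with control replicate 2 nearest to them. The control mean was 727 ± 284 and the FOG1 ki/ki mean 1206 ± 24.1 (SD, n = 3). Smc4, a core condensin subunit, read 813, 811 and 662 against 978, 873 and 835 without overlap (difference 0.23 on the log2 scale, SE 0.16, adjusted p = 0.954 by limma). Ncapd2, a condensin I subunit, read 282, 311 and 195 against 324, 394 and 306 (difference 0.37 on the log2 scale, SE 0.25, adjusted p = 0.945 by limma), with 1 control array inside the FOG1 ki/ki range. Smc2 (0.32), Ncapg (0.31), Ncaph (0.45) and topoisomerase II alpha, Top2a (0.30), lay between Smc4 and Mki67. The condensin and chromosome median was 0.50 with control replicate 2 left out and 0.11 with control replicate 3 left out.

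Cytokinesis genes had a median close to that of spindle and checkpoint genes. The 22 genes of the checkpoint, kinetochore and spindle roles had a median of 0.34 (middle 50% from 0.20 to 0.43), with 20 above control. The 9 cytokinesis genes had 0.37 (middle 50% from 0.31 to 0.53). The difference of the medians was 0.032 overall and 0.055, 0.033 and 0.13 in pairs 1, 2 and 3, given as a description with no test. It turned to -0.0049 with the chromosomal passenger genes counted as cytokinesis, and to -0.047 without FOG1 ki/ki replicate 2. In all 3 pairs, 8 of 9 cytokinesis genes and 13 of 22 spindle and checkpoint genes were higher. Within cytokinesis, the furrow exchange factors Ect2 (0.56) and Arhgef2 (0.23) stood on either side of the role's median.

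Other probe sets of the same genes mostly ran in the same direction. A further 49 probe sets of 31 genes exceeded the signal filter, and 47 of them had the sign of the brightest one. The 2 that did not belonged to Kif23 and Pttg1. The median log2 difference of these further probe sets was 0.23. Averaging the probe sets of a gene moved Cit from 0.74 to 0.30, Cenpe from 0.59 to 0.30 and Kif23 from 0.37 to 0.13. It moved Smc4 from 0.23 to 0.12, Pttg1 from -0.13 to -0.026 and Incenp from 0.055 to 0.19.

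Genes of the same pathway outside the list were read from the same fit. Of 56 other mitosis genes above the filter (58 listed), 50 lay above control, with a median of 0.26 and pair medians of 0.072, 0.28 and 0.40, and limma, run with the block and without it, called 0. By unadjusted p under 0.05, 1 was higher, Aspm, and 1 lower, Ckap2l (338 higher and 415 lower of all 11260 genes). In the blocked fit the counts were 13 higher and 1 lower (900 higher and 1176 lower of all 11260 genes). Aspm, a spindle pole protein, read 219.6, 292 and 178 in controls and 317, 406 and 363 in FOG1 ki/ki, without overlap (difference 0.64 on the log2 scale, SE 0.25, adjusted p = 0.672 by limma). Ckap2l, a spindle protein, went the other way, with 1393, 1495 and 1959 against 1149, 1396 and 1024 (difference -0.43 on the log2 scale, SE 0.18, adjusted p = 0.728 by limma). Its pair 3 difference was the widest, and replicate 2 arrays nearly matched. The transcription factor Foxm1, which drives many of these genes, was dim at 56.2, 66.3 and 31.7 against 70.1, 70.7 and 40.5 (difference 0.19 on the log2 scale, SE 0.33, adjusted p = 0.999 by limma).

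Genes of the contractile ring and abscission, most of them expressed throughout the cell cycle, were spread around 0. Of 25 above the filter (27 listed), 14 lay above and 11 below control, with a median of 0.012, and limma called 0, in the blocked fit as well. By unadjusted p under 0.05, 1 was higher and 0 lower (338 higher and 415 lower of all 11260 genes). In the blocked fit 1 was higher and 4 lower (900 higher and 1176 lower of all 11260 genes). The 4 lower ones were lower in each pair, namely the ESCRT partner Pdcd6ip (-0.24), Rab11a, the syntaxin Stx2 (-0.38) and the kinase Lats2 (-0.62), and are named after their values were seen. The higher one was Arhgap11a in both fits, a RhoA regulator that is itself transcribed around mitosis, with 497, 483 and 292 in controls and 639.9, 686 and 554 in FOG1 ki/ki (difference 0.58 on the log2 scale, SE 0.25, adjusted p = 0.742 by limma). Rab11a, of the recycling endosomes that reach the midbody, read 1875, 2335 and 2383 against 1705, 1907 and 2023 (difference -0.22 on the log2 scale, SE 0.14, adjusted p = 0.935 by limma). Rhoa itself read 2009, 2518 and 2283 against 1772, 2249.6 and 2152 (difference -0.14 on the log2 scale, SE 0.14, adjusted p = 0.997 by limma) and was lower in each pair by 0.18, 0.16 and 0.084 on the log2 scale. Myh10, the nonmuscle myosin whose silencing accompanies endomitosis, was dim and uneven, with 38.7, 105 and 5.10 against 41.0, 44.2 and 31.8 (difference 0.077 on the log2 scale, SE 0.58, adjusted p = 0.999 by limma). Its pairs ran in opposite directions, at 0.059, -1.01 and 1.18.

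Markers of other blood and stromal cell types also differed between arrays. All 11 mast cell genes above the filter (13 measured of 14 listed) lay above control, and their list's summed signal was 763 to 4343 in controls and 8435 to 8629 in FOG1 ki/ki. The lowest sum was on control replicate 3, as for the mitosis genes. Fcer1a, a chain of the IgE receptor, read 1891, 2168 and 93.1 in controls and 3317, 3696 and 3912 in FOG1 ki/ki. A few bright genes carried the sums. Gata2 read 481 on control replicate 3, and on FOG1 ki/ki replicate 3 Gzmb and Gata2 read 1785 and 1767. On that array Cpa3, Hdc and Mcpt8 read 170, 19.6 and 99.4, below 239, 149 and 555 on control replicate 1. Ms4a2, Kit, Mcpt1 and Mcpt2 lay above their control replicate 1 values there, and Cma1 was nearly level. Macrophage genes lay below control in 13 of 14 cases, with sums of 10207 to 18262 against 5549 to 13934, and fibroblast genes in 10 of 11, with sums of 222 to 6968 against 155 to 2851. Neutrophil sums were 2871 and 4639 on the control and FOG1 ki/ki arrays numbered 3 and 9024 to 15155 on the other 4. Erythroid sums were 3965 to 4847 against 3197 to 3798. Of 4 erythroid genes above the filter (8 measured of 12 listed), 3 lay below control and 1 above. The one above was Klf1, with 43.7, 20.1 and 3.04 in controls and 100.9, 162 and 78.7 in FOG1 ki/ki. Megakaryocyte genes lay below control in 11 of 11 cases, with a median of -0.19. Their log2 differences ran from -1.35 for Gp6 and -1.01 for Tubb1 to -0.0028 for Pf4. Of all 11260 genes tested, 6204 lay above control and 5056 below. At an adjusted p of 0.05, limma called 0 genes of each marker list. In the blocked fit it called 1 megakaryocyte and 1 mast cell gene (background 0.417% higher and 0.417% lower). No marker was at 0 on any array, though the mast cell protease Mcpt4 never exceeded 1.80. Which cells in the pooled RNA made these transcripts was not tested, nor was their part in the mitosis signal.

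**Figure D4:**
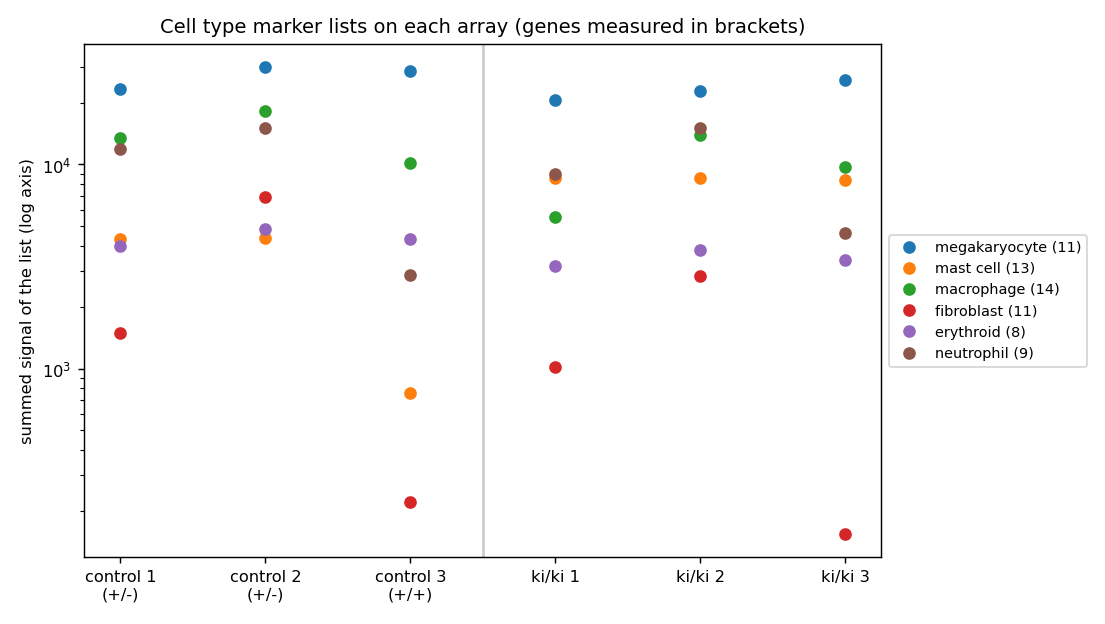
Summed signal of 6 cell type marker lists on each array, on a log axis, with the number of genes measured in brackets. The mast cell sum is 763 on control replicate 3 and between 8435 and 8629 on the FOG1 ki/ki arrays, and the megakaryocyte sum is above 4847 on every array.

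The choice of scale moved these values little. The median of the list lay between 0.29 and 0.34 over the other pseudocounts, scalings, signal filters and probe set rules tried, and 47 of 49 genes stayed above control in each, or 40 of 42 in the brightest 25% of probe sets. Leaving out 1 array moved it between 0.072 and 0.50.

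**Figure D5:**
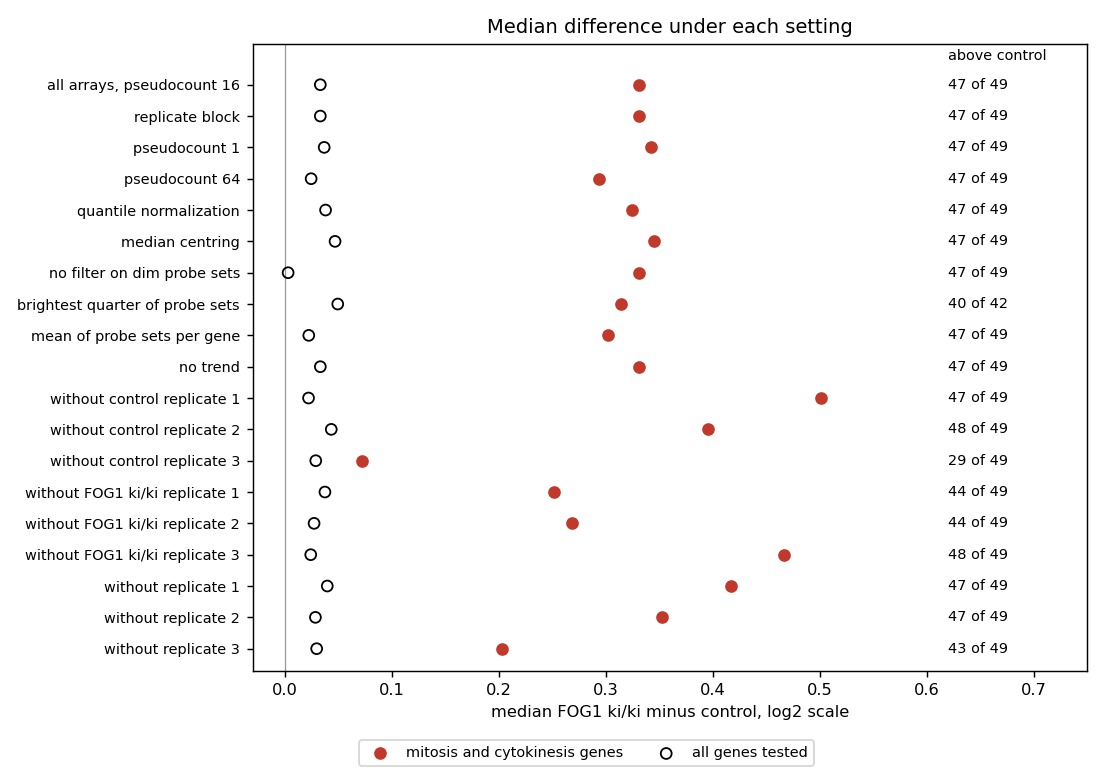
Median log2 difference of the mitosis and cytokinesis genes (filled) and of all genes tested (open) under each processing setting and with arrays left out, with the number of genes above control at the right. The filled point nearest the open one, at 0.072, is the setting without control replicate 3.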

How the data were processed

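The authors deposited 1 linear intensity per probe set and array, computed with MAS5 per the submitters' processing notes (the version is not given in the sources used here). Each deposited column had a 2% trimmed mean of 150, a common scale on which a change in total RNA per cell cannot be seen. Both arrays numbered 3 differed in form from the others. They had 0 probe sets at exactly 0, where the others had 73 to 146. Their median signals were 7.75 (control) and 5.93 (FOG1 ki/ki), against 10.3 to 12.3 on the others. Whether they were computed differently was not tested. Both arrays numbered 1 stood apart on control probe sets. BioC-5 read 219 (control) and 235 (FOG1 ki/ki) on them and 754 to 974 on the others. MURINE_B2 read 467 and 621 against 2710 to 3707, and MUR_b2 2358 and 2420 against 51.3 to 93.2. The cause of these gaps was not tested. Precision is limited by having 3 arrays a group. Of 45101 probe sets, 34958 had 1 gene symbol in the platform annotation, 932 several and 9211 none, and 34754 matched RefSeq (GRCm38.p6) by Entrez identifier. The 64 control probe sets and the lower 50% of probe sets by mean log2(signal + 16) were left out, and each gene was read from its brightest probe set. The pseudocount of 16 understates differences of dim genes.

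FOG1 ki/ki was compared with control over all 11260 genes with limma 3.58.1 in R 4.3.3 (lmFit, eBayes with a trend, Benjamini-Hochberg, threshold 0.05). The fit without the block was run on simulated arrays drawn independently, so its behaviour under effects shared by replicate number was not tested. Python 3.11.15 with pandas 2.3.3, numpy 2.4.6 and matplotlib 3.10.9 did the rest. Deviations from group means of arrays with the same number correlated across genes at 0.482, 0.689 and 0.673, so the numbers were read as pairing, from the data and not the labels. The p-values set the group difference against the spread between these arrays, or in the blocked fit against the spread left after replicate number. Unless the block is named, SEs and adjusted p-values given with single genes are from the fit without it. Genes given on every array were Aurkb, Ect2, Arhgef2, Kif23, Mki67 and Cit, and in each role the 2 with the lowest unadjusted p and the one with the lowest difference, plus 2 per further list, Foxm1, Myh10 and Rhoa. Other genes are given by their differences. The members and lists were chosen with earlier results of these data known. Pseudocount, scaling, filter, probe set rule, trend, block and arrays left out were varied.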

Additional observations from a re-analysis of the deposited data

How the results depend on the processing

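No mitosis or cytokinesis gene passed limma's adjusted threshold under any setting tried, and no gene of the 2 further lists did. The count of genes past the test over the whole array was 11 higher and 6 lower. It became 47 and 47 with the replicate block, which changed no call for a named gene. It was 5 and 3 with a pseudocount of 1, 0 and 1 with no filter (at an unadjusted p under 0.05, 487 higher and 595 lower), and 1 and 2 in the brightest 25% of probe sets. With probe sets averaged per gene, 3 were lower. With arrays left out it was 0 to 1 higher and 0 to 1 lower (at an unadjusted p under 0.05, 194 to 399 higher and 262 to 612 lower). With arrays left out, the median of the mitosis and cytokinesis genes ranged from 0.0724 to 0.501, that of checkpoint and anaphase genes from -0.0216 to 0.398, of kinetochore genes from -0.0402 to 0.627 and of cytokinesis genes from -0.00370 to 0.555. The lower ends were without control replicate 3 alone. Without both arrays numbered 3 these medians were, in the same order, 0.203, 0.148, 0.26 and 0.266. The difference of cytokinesis from spindle and checkpoint medians ranged from -0.0471 to 0.170, and was -0.0049 with chromosomal passenger genes added. The other mitosis median ranged from 0.0843 to 0.433 and the contractile ring median from -0.0392 to 0.0518, and the latter was -0.0007 with quantile normalization. Single genes that turned sign with arrays left out ranged from -0.167 to 0.228 (Cdk1), -0.341 to 0.0569 (Pttg1), -0.139 to 0.614 (Spc25), -0.295 to 0.200 (Aurka), -0.278 to 0.346 (Incenp), -0.263 to 1.25 (Ect2), -0.135 to 0.795 (Kif23), -0.0400 to 0.396 (Foxm1) and -0.573 to 0.688 (Myh10). Myh10 was also at -0.047 with a pseudocount of 64. The cause was not tested.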
